A study of Mus musculus with 7 samples.

Results

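Antibody genes of the mouse are assembled from segments, and the segments described here are the variable (V) segments of the immunoglobulin heavy chain locus (Igh, chromosome 12) and of the kappa light chain locus (Igk, chromosome 6). The members were all genes of the RefSeq table for GRCm38.p6, the build also called mm10, whose symbol starts with Ighv on chromosome 12 or Igkv on chromosome 6, whatever their biotype. The rule gave 183 Ighv and 162 Igkv segments, 345 of 49943 genes on the placed chromosomes. No gene with either stem was placed on another chromosome. Of the 345 segments, 123 (35.7%) were classed as pseudogenes.

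The segments were placed against lamin-associated domains (LADs). These are parts of the chromosomes in contact with the lamina, a protein mesh that lines the nucleus. The domains came from CUT&RUN, in which an antibody on chromatin directs a nuclease to cut out the DNA around its target, here Lamin B1, a protein of the lamina. The samples were mouse embryonic fibroblast lines that the labels call iMEF, derived independently from 1 mouse colony, with whole cells used for Lamin B1 and nuclei for the histone marks. The name of the deposited list calls it WT and merged. The labels give no strain, genetic alteration, treatment or age of the embryos. There were 2 Lamin B1 libraries, 2 IgG control libraries, 2 H3K9me2 libraries with a different antibody each (ab1220 and 39041) and 1 H3K14ac library. Only the merged list of 1437 domains was analysed here, and the libraries behind it are not named. It holds positions and no signal, so the read depth is unknown, no value below has a replicate error, and the fibroblast label could not be checked against expressed markers.

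A functional antibody gene is made by V(D)J recombination, in which the RAG recombinase joins 1 V segment to the D and J segments of a heavy chain locus, or to a J segment of a light chain locus. This happens in developing B cells and not in fibroblasts, where both loci stay in the germline order: V segments on one side, then D (heavy chain only), J and the constant genes that encode the effector parts of antibodies. Both loci are known to lie at the nuclear periphery in cells outside the B lineage and to leave it in B cell precursors before recombination.

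Every V segment of both loci lay in a LAD, and each locus lay in a single domain. All 183 Ighv midpoints fell in the LAD at chr12:113222386-116169876, and all 162 Igkv midpoints in the LAD at chr6:67539434-70736923. Among all annotated genes with a midpoint between the first and the last domain of their chromosome, 32.9% of 48440 lay in a LAD. On chromosome 12 without the Ighv segments it was 37.8%, and on chromosome 6 without the Igkv segments 34.9%. For protein-coding genes it was 24.6%, and for pseudogenes other than antigen receptor segments 51.7%. The 120 Ighv and 102 Igkv segments that are not pseudogenes were all inside, as were the 63 and 60 pseudogenes. The segments of a locus share 1 domain and are not independent of each other, so no test was made of these counts.

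The domains were uninterrupted across the clusters. The Ighv cluster spans 2.44 Mb, from Ighv5-1 to Ighv1-86, and 100% of those bases lay in the LAD. The Igkv cluster spans 3.15 Mb, from Igkv2-137 to Igkv3-1, and was also covered to 100%. The smallest distance between 2 neighbouring domains in the whole list was 52499 bp, and domain borders move in steps of about 2.5 kb, so a shorter break in either domain would not be seen.

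**Figure D1:**
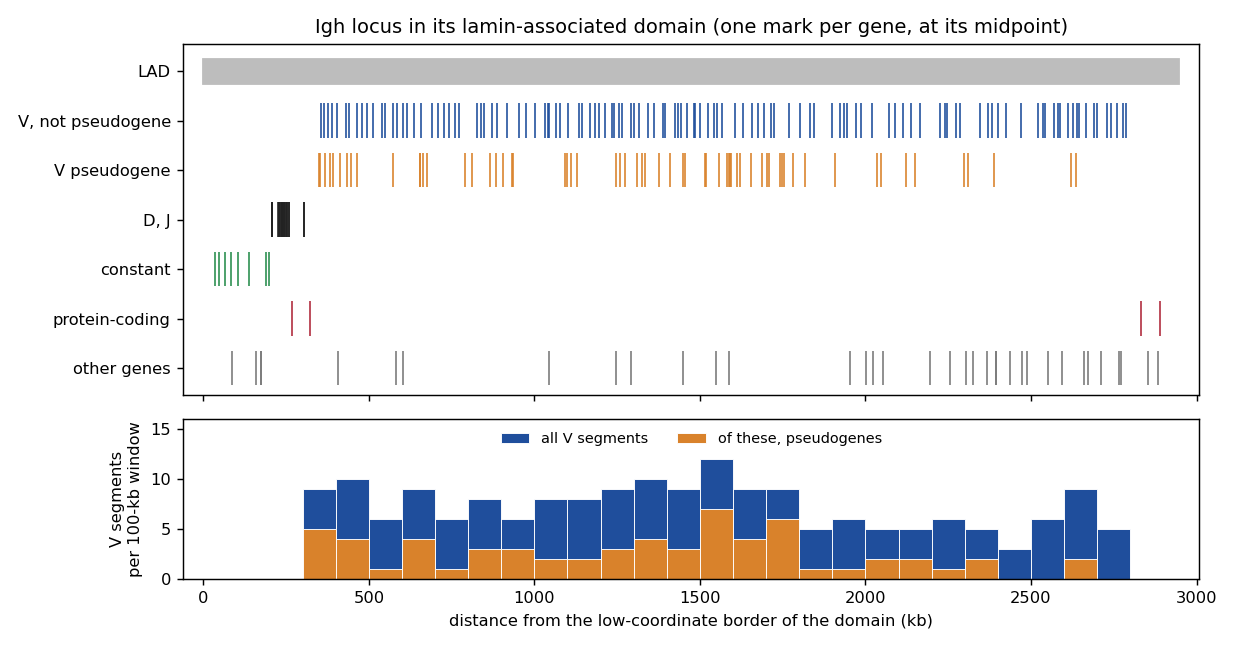
Map of the Igh domain. The x axis is the distance in kb from its low-coordinate border; the upper panel has 1 mark per gene at its midpoint, and the lower panel counts V segments per 100-kb window, with pseudogenes in orange. The constant genes sit at the low-coordinate end, the D and J segments next to them, and the V segments fill 25 of 30 windows.

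**Figure D2:**
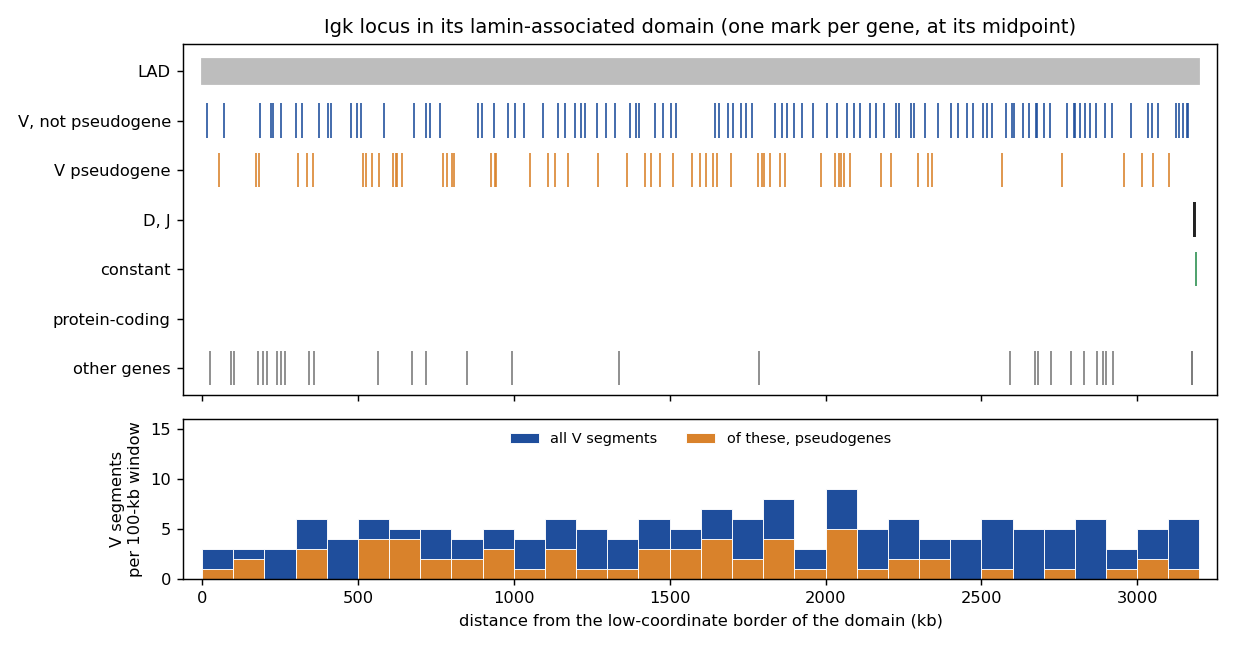
Map of the Igk domain, drawn in the same way. V segments occur in all 32 windows, from one border to the other, and the J segments and the constant gene Igkc sit at the high-coordinate end with no protein-coding gene anywhere in the domain.

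The domain of the kappa locus ended almost where the locus ends. The Igk locus, from Igkv2-137 to Igkc, measures 3.17 Mb and made up 99.2% of its 3.20-Mb LAD. The V-end border lay 16.2 kb before Igkv2-137, and the other border 10.2 kb after Igkc, the constant gene of the kappa chain. The 5 J segments, Igkj1 to Igkj5, lay between Igkc and the V segments, and Igkj1, the farthest in, was 14.3 kb from that border. The heavy chain locus, from the constant gene Igha to Ighv1-86, measures 2.75 Mb and took up 93.4% of its 2.95-Mb LAD, with 33.8 kb left beyond Igha and 159.9 kb beyond Ighv1-86.

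The constant genes were inside in both loci. In the heavy chain locus all 8 lay in the LAD that holds the V segments, as did the 4 J segments and the 20 D segments. Igha, which encodes the constant part of IgA, was the nearest to the border, with its midpoint 35.8 kb inside. Ighe (IgE) followed at 48.9 kb, Ighg2c at 65.8 kb, Ighg2b at 83.7 kb, Ighg1 at 106.1 kb and Ighg3 at 137.0 kb, the last 4 encoding IgG subclasses. Ighd (IgD) was 189.5 kb inside and Ighm, which encodes the IgM constant part used first by every B cell, 198.4 kb. With Igkc, whose midpoint was 10.3 kb from the border, 9 of 9 constant genes were inside. With 100 kb as a mark, Igkc and 4 heavy chain genes lay nearer to a border and 4 lay farther in. Taking V, D, J and constant genes together, 383 of 383 lay in these 2 domains.

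The 2 ends of the Igh domain differed in their protein-coding neighbours. Before the Igh domain, 3292 kb were free of LADs. Its nearest protein-coding neighbours there were Tmem121 at 32.9 kb, Tedc1 at 56.9 kb and Crip1 at 68.5 kb, and within 150 kb of this border 8 protein-coding genes had their midpoint outside and none inside. At the V-end border 4 protein-coding genes lay within 150 kb, of which Zfp386 and Vipr2 were inside the domain and the other 2 outside. Beyond the V end of Igh, a gap of 307.5 kb holds Wdr60, a gene of the ciliary transport machinery, at 36.4 kb from the border, then Esyt2 at 109.4 kb and Ncapg2, a condensin subunit, at 235.5 kb. The next LAD starts after that gap, at position 116477376.

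The kappa domain also lay between LAD-free gaps. The gap on the V side measured 817.5 kb. Among its genes are Il23r and Il12rb2, which encode subunits of cytokine receptors, at 47.6 and 163.1 kb from the border. On the constant side 2682 kb were free of LADs, with Rpia, an enzyme of the pentose phosphate pathway, at 28.8 kb, Eif2ak3, a kinase of the unfolded protein response, at 107.6 kb, and Tex37 at 176.2 kb. One annotated gene ran across a border, the non-coding RNA gene Gm30211 next to Igkc, with its midpoint outside.

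**Figure D3:**
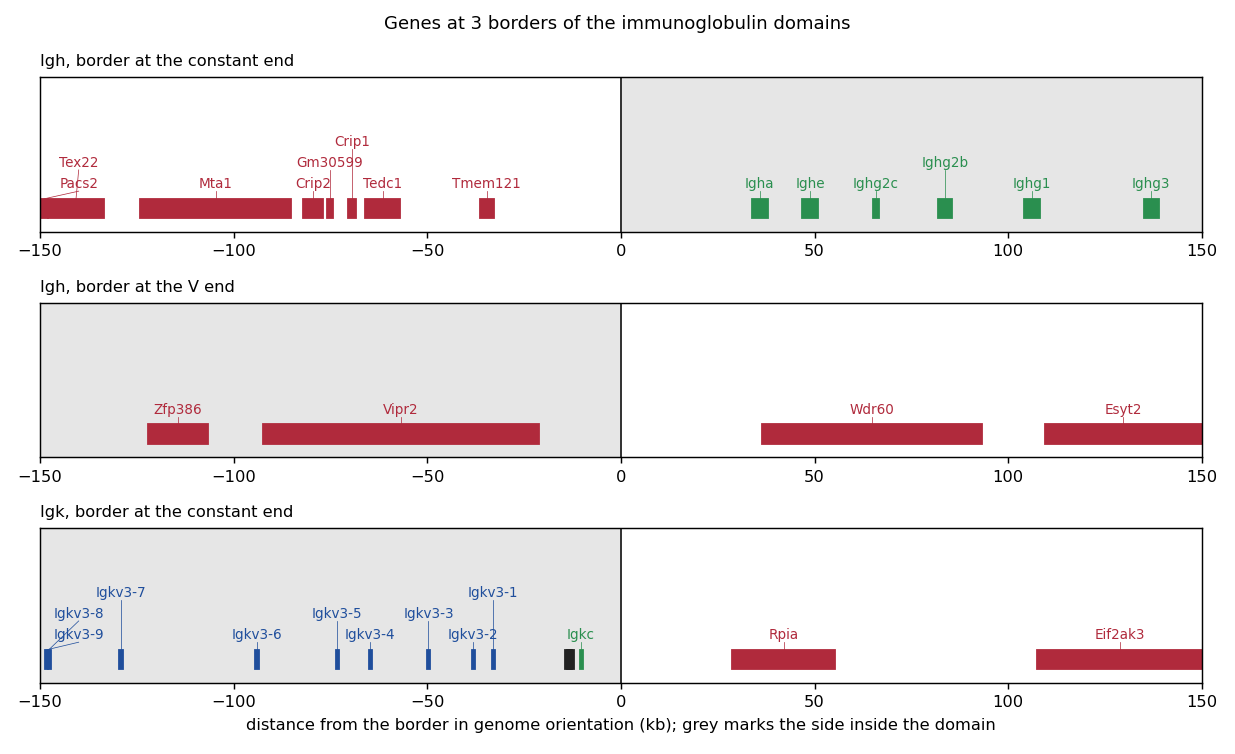
Genes at both borders of the Igh domain and at the constant-end border of the Igk domain. The x axis is the distance from the border in kb in genome orientation, with the inside of the domain in grey; red boxes are protein-coding genes, green boxes constant genes, blue boxes V segments and the black box the Igkj segments. The constant-end borders separate protein-coding genes from antibody genes, and at the V end of Igh the genes Zfp386 and Vipr2 lie between Ighv1-86 and the border.

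The Igh domain held 4 protein-coding genes and the Igk domain none. Adam6b and Adam6a, sperm proteins of the ADAM family, were 267.2 and 321.5 kb from the constant-end border. Adam6b sits among the D segments, between Ighd1-1 and Ighd3-1, and Adam6a between the last D segment and the first V segment. Zfp386, a zinc finger gene, and Vipr2, a receptor for the peptide VIP, lay beyond the last V segment, 106.6 and 21.2 kb from the V-end border. No protein-coding gene was placed between the first and the last V segment of either cluster.

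Promoter windows in the RefSeq table run from 250 bases before to 50 after a gene's start and hold no entry for an Ighv or Igkv segment. They are shown for genes on either side of the borders, because they let the start sites inside and outside the domains be compared. Letters are in lower case with each CG dinucleotide in capitals. Tmem121 (chr12:113185653-113185952, plus strand) and Rpia (chr6:70792126-70792425, minus strand) are the nearest protein-coding genes outside a constant end, and Adam6b (chr12:113489315-113489614, plus strand), Adam6a (chr12:113543658-113543957, plus strand) and Vipr2 (chr12:116077476-116077775, plus strand) are inside the Igh domain.
Tmem121: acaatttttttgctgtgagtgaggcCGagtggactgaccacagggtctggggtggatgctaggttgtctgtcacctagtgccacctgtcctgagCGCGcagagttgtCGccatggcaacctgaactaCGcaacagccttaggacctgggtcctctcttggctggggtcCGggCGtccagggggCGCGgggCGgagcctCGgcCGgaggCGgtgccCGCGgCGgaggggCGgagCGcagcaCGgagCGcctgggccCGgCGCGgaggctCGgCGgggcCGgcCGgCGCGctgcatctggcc
Rpia: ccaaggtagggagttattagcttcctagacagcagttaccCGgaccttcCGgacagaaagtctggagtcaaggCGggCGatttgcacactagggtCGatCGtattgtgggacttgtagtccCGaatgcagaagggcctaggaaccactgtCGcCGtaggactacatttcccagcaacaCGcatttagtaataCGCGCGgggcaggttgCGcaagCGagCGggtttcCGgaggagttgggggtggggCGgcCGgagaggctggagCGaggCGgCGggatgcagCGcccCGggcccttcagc
Adam6b: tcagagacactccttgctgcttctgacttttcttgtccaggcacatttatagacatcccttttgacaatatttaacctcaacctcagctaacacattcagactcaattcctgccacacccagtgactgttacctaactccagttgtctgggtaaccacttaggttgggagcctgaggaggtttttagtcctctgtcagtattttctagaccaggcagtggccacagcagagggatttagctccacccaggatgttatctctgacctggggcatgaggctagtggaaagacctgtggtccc
Adam6a: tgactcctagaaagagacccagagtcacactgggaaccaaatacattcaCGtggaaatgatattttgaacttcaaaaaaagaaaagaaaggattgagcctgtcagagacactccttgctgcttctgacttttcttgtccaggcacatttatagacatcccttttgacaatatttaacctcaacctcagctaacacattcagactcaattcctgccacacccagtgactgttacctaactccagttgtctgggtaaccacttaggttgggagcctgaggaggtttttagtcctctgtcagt
Vipr2: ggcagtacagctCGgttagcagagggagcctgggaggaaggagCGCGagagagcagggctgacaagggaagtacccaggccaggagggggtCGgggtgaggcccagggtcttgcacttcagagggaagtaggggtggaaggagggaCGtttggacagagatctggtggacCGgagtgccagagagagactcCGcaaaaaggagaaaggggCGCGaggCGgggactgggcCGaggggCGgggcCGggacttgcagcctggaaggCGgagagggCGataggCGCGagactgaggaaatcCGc

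The windows differed in CG dinucleotides. Tmem121 had 29 and Rpia 24, against 0 in Adam6b and 1 in Adam6a. Vipr2, also inside, had 18, and Zfp386 had 17. Outside, Il23r had 2 and Tex37 had 1, so both high and low numbers occurred on either side of the borders. Over the whole table the median was 3 in 8030 windows inside LADs (quartiles 1 and 7) and 10 in 24821 windows outside (quartiles 4 and 23). The Adam6a and Adam6b windows hold the same sequence, shifted by 101 bases, with 199 of 199 aligned bases identical. The octamer of immunoglobulin promoters was searched on both strands as ATTTGCAT or ATGCAAAT. It was in none of the 15 windows examined near the borders and in 1.74% of all 32851 windows.

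The V segments were spread through most of their domains, the Ighv cluster over 82.7% of the domain length and the Igkv cluster over 98.5%. From segment midpoint to the nearest border, the distance in Igh ran from 160.1 kb (Ighv1-86) to 1466 kb (Ighv1-19-1), with a median of 911.6 kb. In Igk it ran from 16.5 kb (Igkv2-137) to 1599 kb (Igkv13-76, a pseudogene), with a median of 882.3 kb. More than 1 Mb from a border were 83 Ighv segments (45.4%) and 68 Igkv segments (42.0%). Within 250 kb were 6 and 21, and within 50 kb none and 4, namely Igkv2-137 at one end and Igkv3-3, Igkv3-2 and Igkv3-1 at the other. Ighv5-2, the V segment nearest to the D segments that is not a pseudogene and one used often in early B cell development, was 356.4 kb from the constant-end border. Ighv1-72, the segment of the classical antibody response to the hapten NP, was 411.7 kb from the V-end border.

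Pseudogenes did not sit nearer to the borders than the other segments. In Igh the median distance was 1092 kb for pseudogenes and 852.0 kb for the others, and in Igk it was 964.0 and 768.4 kb. These are descriptions of the annotation in 2 domains and were not tested.

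Along the domains the Ighv segments were the more closely spaced. There were 75.1 Ighv segments per Mb of cluster, with a median of 11.5 kb between neighbours (quartiles 6.97 and 17.1 kb), and 51.5 Igkv segments per Mb, with a median of 16.8 kb (quartiles 9.25 and 23.7 kb). Windows of 100 kb held up to 12 Ighv and up to 9 Igkv segments. The longest stretch without a V segment in Igh was 59.4 kb, between Ighv1-62-1 and Ighv1-62-2. In Igk it was 100.7 kb, between Igkv1-135 and Igkv14-134-1. Both stretches lay in the LAD like the rest of the clusters.

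V families, whose members resemble each other in sequence and carry the number that follows Ighv or Igkv in the symbol, occupied different depths of the domains. The 21 Ighv5 and 11 Ighv2 segments lay nearest to D and J, at medians of 257.4 and 286.8 kb from the J segments, and their median distances to the nearest border were 465.0 and 494.4 kb. The 8 Ighv3 and 7 Ighv6 segments followed, at medians of 828.3 and 976.6 kb from J. The 92 Ighv1 segments, the largest family, had a median of 1525 kb, and the 16 Ighv8 segments 1951 kb. These last families made up all 98 segments farther from J than Ighv15-2 (1135 kb) and none of the 63 nearest segments. The middle of the domain fell in the Ighv1 family, whose median distance to a border was 1203 kb.

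In Igk the 13 segments nearest to J were the 13 Igkv3 segments, 18.4 to 224.2 kb from J. They were the family nearest to a border, at a median of 129.2 kb. The 9 Igkv6 and 13 Igkv8 segments came next, at medians of 386.1 and 505.1 kb from J, followed by 6 Igkv5 segments at 876.0 kb and 12 Igkv12 segments at 964.4 kb. The middle of the domain was taken by Igkv4 and Igkv13, which made up 52 of the 56 segments between 1021 and 1967 kb from J. Their median distances to a border were 1359 and 1374 kb. These families alternated: of 161 neighbouring pairs in the cluster, 34 joined an Igkv4 with an Igkv13 segment, 14 joined 2 Igkv4 segments and 1 joined 2 Igkv13 segments. Of the Igkv13 segments 17 of 19 were pseudogenes, against 5 of 33 for Igkv4. Toward the V end lay Igkv15 (5 segments, median 2243 kb from J), Igkv2 (10, 2408 kb), Igkv1 (13, 2601 kb), Igkv14 (8, 2741 kb) and Igkv9 (6, 2774 kb). Neighbours were of the same family in 50% of 182 pairs in Igh and in 31.7% of the pairs in Igk.

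**Figure D4:**
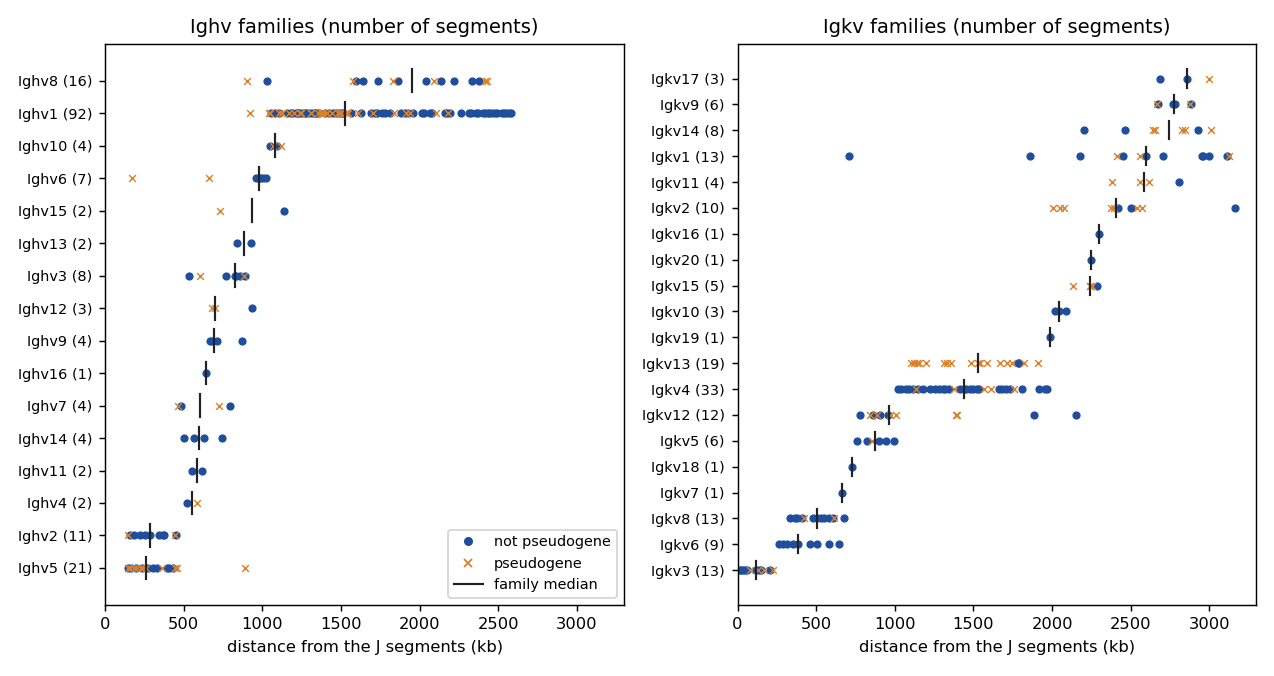
Distance of each V segment from the J segments in kb, by family, with the number of segments in brackets. Blue dots are segments that are not pseudogenes, orange crosses are pseudogenes and black bars are family medians; Ighv5, Ighv2 and Igkv3 lie at the J end, and Igkv13, mostly pseudogenes, runs beside Igkv4 in the middle of the domain.

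Among the other genes of both domains, pseudogenes were the most numerous class. Apart from V, D, J and constant genes, the Igh domain held 41 entries, of which 24 were pseudogenes, 7 long non-coding RNA genes, 4 protein-coding genes and 3 microRNA genes. The rest include the record Igh, which stands for the whole locus, and Gm7003. Gm7003 is classed as a V segment but does not carry an Ighv symbol, and it is not counted as a member. The Igk domain held 31 such entries, with 21 pseudogenes, 4 snoRNA genes, 4 long non-coding RNA genes and the record Igk of the whole locus. The records Igh and Igk are also part of the gene totals of the domains given below.

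Of the microRNA genes, Mir7094-1 and Mir7094-2 lay next to V segments. Mir7094-1 is 35 bases from Ighv1-2 and Mir7094-2 is 11 bases from Ighv1-5, both on the high-coordinate side of a V segment. Mir6388 lies between Ighv1-70 and Ighv1-71. The mature sequences of the first pair are shown because these genes sit beside V segments, with the seed (bases 2 to 8) in capitals.
mmu-miR-7094-3p: uACUCUGCuguucucuccaca
mmu-miR-7094-1-5p: uCUGAAGAggauacagggucuga
mmu-miR-7094b-2-5p: uCUGGAGAggauacagggucuga
The 3p sequence is the same in both genes. The 5p sequences differ by 1 of 23 bases, A5G counted from the 5′ end (the base of Mir7094-1 first), which falls in the seed. On GRCm38.p6 Mir7094-1 occupies chr12:114469407-114469466 and Mir7094-2 chr12:114513635-114513694, and both were inside the LAD.

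By number of annotated genes both domains ranked near the top of the list. With 256 annotated genes, 183 of them V segments, the Igh LAD held the second largest number of the 1437 domains, although it was the 93rd by length. The Igk LAD, with 199 genes and 162 V segments, was the sixth by genes and the 77th by length. The median of the 436 LADs of at least 1 Mb was 16 genes (quartiles 11 and 27), or 8.01 per Mb, against 86.9 per Mb in the Igh and 62.2 in the Igk domain. Counted by protein-coding genes, a class that leaves out V segments, the order was different. The Igh domain had 4 and the Igk domain none, where LADs of at least 1 Mb had a median of 3. Of those LADs 34 (7.80%) had no protein-coding gene. Among these 34 the Igk domain held the most annotated genes, 199, the next held 27, and the median was 9.

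**Figure D5:**
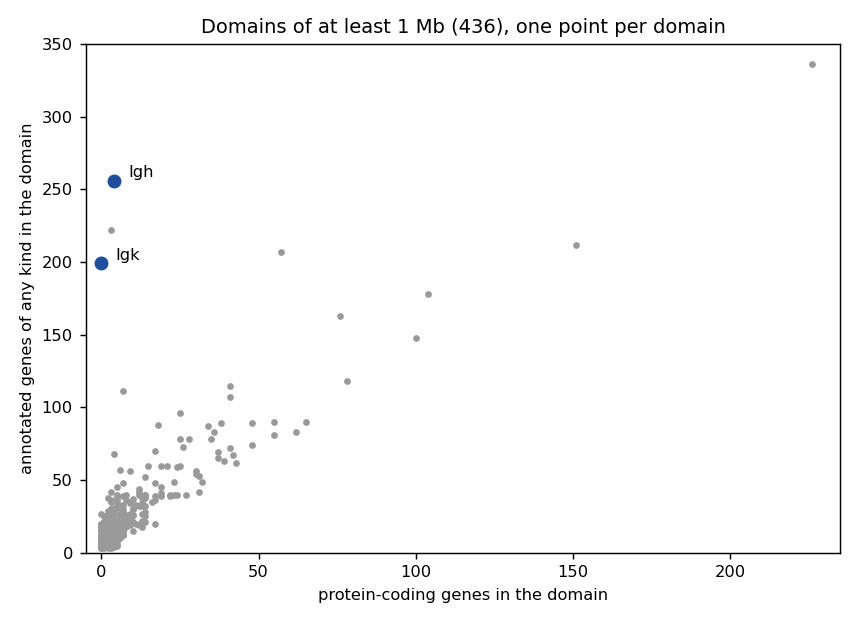
Annotated genes of any kind (y axis) against protein-coding genes (x axis) in LADs of at least 1 Mb, 1 point per domain, with the Igh and Igk domains in blue. Igh (256 genes, 4 protein-coding) and Igk (199 genes, 0 protein-coding) lie far above domains with as few protein-coding genes, apart from 1 domain of chromosome 7 with 222 genes and 3 protein-coding genes.

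Other antigen receptor loci were placed in the same way, as values without a test. The lambda light chain locus on chromosome 16 also lay in 1 LAD. Inside were 3 of 3 Iglv segments and 4 of 4 constant genes, and the locus took up 19.0% of its 1050-kb domain. Of the T cell receptor loci, gamma took up 26.8% of the LAD that holds its V segments, and beta 61.0%. The alpha locus took up 94.96% of its LAD, more than the heavy chain locus did, although part of the alpha locus lay outside. All 7 V segments of the T cell receptor gamma locus were inside. In the beta locus 34 of 35 Trbv segments were inside. The exception was Trbv31, which lies beyond the constant genes, and both constant genes were outside too. In the alpha locus 91 of 130 Trav segments (70%) were inside 1 LAD, and 39 were outside it, 7.39 to 478.8 kb from the nearest border, along with the constant gene Trac. Of the delta locus, all 6 Trdv segments and the constant gene Trdc were outside. The loci of the heavy, kappa, lambda and gamma chains thus had all V segments and constant genes inside LADs. The alpha and beta loci had most V segments inside and their constant genes outside. For the delta chain only segments with a Trdv symbol were counted, and these were outside with Trdc. Segments with a Trav symbol were counted for the alpha locus alone.

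Genes of V(D)J recombination and of the B lineage were mostly outside LADs, as were protein-coding genes at large. These lists are short, and the difference from all protein-coding genes was not tested. Of 13 genes of the recombination machinery, 1 had its midpoint in a LAD (7.69%), and of 20 genes of B lineage identity and the B cell receptor, 3 had (15%), where the share of all protein-coding genes was 24.6%. Rag1 and Rag2, which encode the recombinase, were 236.8 and 221.5 kb from the nearest border, and Dntt, the polymerase that adds bases at the joints, 843.4 kb. The exception was Xrcc4, a factor of DNA end joining, of which a short LAD covered 57.1%. In the B lineage list, Ms4a1, which encodes CD20, lay in a LAD over its whole length, and the transcription factor genes Ebf1 and Ikzf1 crossed a border, with 89.8% and 74.7% of their length inside. Pax5, the factor that commits cells to the B lineage, lay outside, 2404 kb from the nearest border, as did the receptor genes Cd79a (844.6 kb) and Cd79b (2157 kb). Vpreb1 and Igll1, which encode the surrogate light chain and share chromosome 16 with the lambda locus, were outside at 121.7 and 115.2 kb.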

How the data were processed

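The authors deposited 1 list of 1437 domains in BED format, read here as the pooled result of the 2 Lamin B1 libraries because its name says merged. Its deposited values are genome positions in bases. The deposited score column held 0 in all 1437 lines. Bowtie2 and mm10 are named in the submitters' processing notes without a role or version, and the domain caller, its threshold and whether IgG or E. coli spike-in reads entered are not given in the sources used here. All domain lengths (100%) were within 125 bp of a multiple of 2.5 kb. Libraries were not analysed singly, so depth is unknown.

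Gene positions, counted from 1, came from the RefSeq table of GRCm38.p6. A gene was called in a LAD when its midpoint was inside 1, and background shares used the 48440 genes with a midpoint between the first and the last LAD of their chromosome. Counts were made with Python 3.11.15 and pandas 2.3.3, and the placement code was tested on simulated domains. Because the list has no replicates and V segments of a locus are not independent, no statistical test was run. The members and the lists were chosen with earlier results of these data known. Named segments and genes are the ends of each cluster, the segments nearest to and deepest from the borders, Ighv5-2 and Ighv1-72, the constant, D and J genes, the 3 nearest protein-coding genes on each side, families of at least 5 segments, and lists of 13 recombination and 20 B lineage genes. Not every gene this rule takes is reported here. Other genes in the domains and other receptor loci were named after their values were seen where they are exceptions. Promoter and microRNA sequences are from RefSeq tables of GRCm38.p6, of which the promoter table held no window for the 345 segments. Recombination signals were not analysed here, without a genome sequence. Alternatives changed the point that stands for a segment, pseudogenes, LAD length, joining of LADs and border position.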

Additional observations from a re-analysis of the deposited data

How the results depend on the processing

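Of 37 recomputed values of 5 results, 35 were unchanged and 2 moved. Unchanged means within the counting interval for a share of segments, equal for a covered share of bases, and within 1.5 times for a count. The counting interval treats segments as independent, which they are not, and served only as a tolerance. Joining or extending LADs, counting any overlap, leaving out pseudogenes, taking any chromosome and the length limits could not lower a share of 100% here. Values from those settings were fixed in advance. With LADs trimmed by 50 kb at each end, the share of Igkv segments in LADs was 97.5% (158 of 162), without Igkv2-137, Igkv3-3, Igkv3-2 and Igkv3-1, and the covered share of the Igkv cluster was 98.4%. In both, the trimming itself takes away the ends. The trimming left 6 of 9 constant genes inside, without Igkc, Igha and Ighe. This loss was counted as unchanged, being within the limit of 1.5 times. The trimming of the cluster spans and constant genes, and the joining at 500 kb, were added after seeing the data. The shares of segments in both clusters were 100% with either end of a segment, whole segments or any overlap, without pseudogenes, with LADs of at least 100 or 500 kb, with LADs joined at 250 or 500 kb and with LADs extended by 50 kb. No paired analysis was possible because 1 merged list holds no values per replicate, and each Lamin B1 library could therefore not be left out in turn. The read depth is unknown, and how the borders vary between libraries was not analysed here.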
